A study of Mus musculus with 6 samples.

Results

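Levels of 5 leukocyte and lymphocyte microRNA assays (miR-142-3p, miR-142-5p, miR-150, miR-181a and miR-181c) were compared between 3 Dicer_KO and 3 Dicer_WT aortas of male mice. They were chosen by assay name, out of 517 microRNA assays on the arrays, and the label was checked only against the known roles of these microRNAs, since no leukocyte was isolated. The 3 Dicer_KO mice carried the genotype LysM-Cre/Dicerflox/flox/Apoe–/–, in which Cre recombinase under control of the lysozyme M gene can delete the floxed Dicer alleles. The 3 Dicer_WT mice were littermates with the genotype LysM-Cre/Dicerwt/wt/Apoe–/–. All mice thus carried the same Cre and lacked Apoe, which leads to atherosclerosis on a fat-rich diet, and all were given a diet with 21% crude fat for 12 weeks from an age of 6 to 8 weeks. Lysozyme M is a gene of monocytes, macrophages and neutrophils. Dicer mRNA and the cells that had lost it were not measured.

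Dicer cuts microRNA hairpins to the mature strands, so a cell that loses it is no longer able to make most new microRNAs. miR-142 is made from one hairpin in nearly all cells of the blood-forming lineages, and both strands of that hairpin are loaded into silencing complexes. miR-150 is abundant in mature B and T lymphocytes, where in mice it holds down the transcription factor Myb, and it is also found in monocytes. miR-181a is high in thymocytes, where in mice it sets the sensitivity of T cell receptor signalling, and its relative miR-181c carries the same seed. The miR-181 family is not confined to leukocytes and is known from endothelium and brain as well. By their label the members stand for leukocytes in general and for lymphocytes, 2 groups of cells of which the second does not use the lysozyme M promoter. In RNA of whole aortas the miR-181 members cannot be read as values of lymphocytes alone.

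The mature sequences show which members share a seed, the part that pairs with target mRNAs, and are given for the 4 of 5 assays matched by name in RefSeq (GRCm38.p6), with the seed (bases 2 to 8) in capitals.
miR-142-5p: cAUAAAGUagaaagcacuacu
miR-142-3p: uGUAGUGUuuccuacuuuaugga
miR-181a: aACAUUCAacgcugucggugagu
miR-181c: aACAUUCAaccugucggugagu
The strands of miR-142 had different seeds, and no other mature mouse sequence in the table used carried either of them. miR-181a and miR-181c shared their seed with each other and with miR-181b-5p and miR-181d-5p, which were not analysed here. The sequence of miR-181c equalled that of miR-181a with 1 base left out, the one at position 11 counted from the 5′ end of miR-181a, so that all other bases of these 2 assays' targets were the same. Their probe sequences were not used here, and how far each assay reads the other's microRNA was not tested.

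The hairpin of miR-142 (gene Mir142, GRCm38.p6, chr11:87756864-87756927, plus strand) is shown with both strands in capitals, as both were measured.
Mir142: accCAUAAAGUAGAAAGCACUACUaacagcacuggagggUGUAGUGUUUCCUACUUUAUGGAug
miR-142-5p lies at chr11:87756867-87756887 and miR-142-3p at chr11:87756903-87756925, inside a hairpin of 64 bases, and the only other gene of the annotation that overlaps it is Mir142b, a microRNA gene annotated on the minus strand. miR-150 comes from Mir150 (chr7:45121757-45121821), with no other overlapping gene. miR-181a comes from 2 hairpins, Mir181a-1 at chr1:137966455-137966541, with no overlapping gene, and Mir181a-2 at chr2:38852735-38852810, within the extents of the genes Nr6a1 and Nr6a1os. miR-181c comes from Mir181c at chr8:84178873-84178961, with no overlapping gene and 85 bases from Mir181d. The assay named miR-181a reads a sequence that both of its hairpins give, so that its level could not be divided between the 2 genes.

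Each aorta was read once per assay by TaqMan PCR as a threshold cycle (Ct), where a product that appears 1 cycle earlier stands for about 2 times the RNA. Relative quantities are the authors' linear ratios to reference RNAs of the same array card (U6, snoRNA135 and snoRNA202 for the card of all 5 members), with the geometric mean of the Dicer_WT aortas set to 1. All 30 wells of the 5 assays gave product, with Ct from 18.8 to 27.3, and Ct below 35 was taken as detected. Over all assays, 349 to 366 were detected in Dicer_KO aortas, against 374 to 378 in Dicer_WT aortas. The labels give macrophage as the cell type, but the smooth muscle microRNA miR-145 had a mean Ct of 12.4 ± 0.465 in Dicer_KO and 11.8 ± 0.237 in Dicer_WT aortas (SD, n = 3 each), so the RNA was read here as that of whole vessels. In such samples fewer cells of a type and less RNA per cell cannot be told apart. The number of arrays limits the precision of every value.

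The comparison asked which microRNAs of the aorta change when Dicer is deleted by LysM-Cre. None of the 5 members changed past the threshold in Dicer_KO aortas, either higher or lower (limma, Benjamini-Hochberg adjusted p under 0.05), against 7 of 377 assays tested (1.86%), all lower. At an unadjusted p under 0.05 the members' count was also 0, against 101 assays (26.8%). The 3 Dicer_KO and 3 Dicer_WT values overlapped for each of the 5 members, whereas they did not overlap for 132 of the 377 assays (35%). On the authors' scale 4 of the members had negative log2 fold changes, as had 295 of the 377 assays (78.2%). The members' median log2 fold change was -0.09, beside -0.42 over all assays tested. Averaged over the 5 members, the log2 relative quantity was -0.14, 0.10 and -0.29 in Dicer_KO replicates 1 to 3, and lay between -0.0090 and 0.0094 in the Dicer_WT aortas, where members above and below their own means offset each other.

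**Figure D1:**
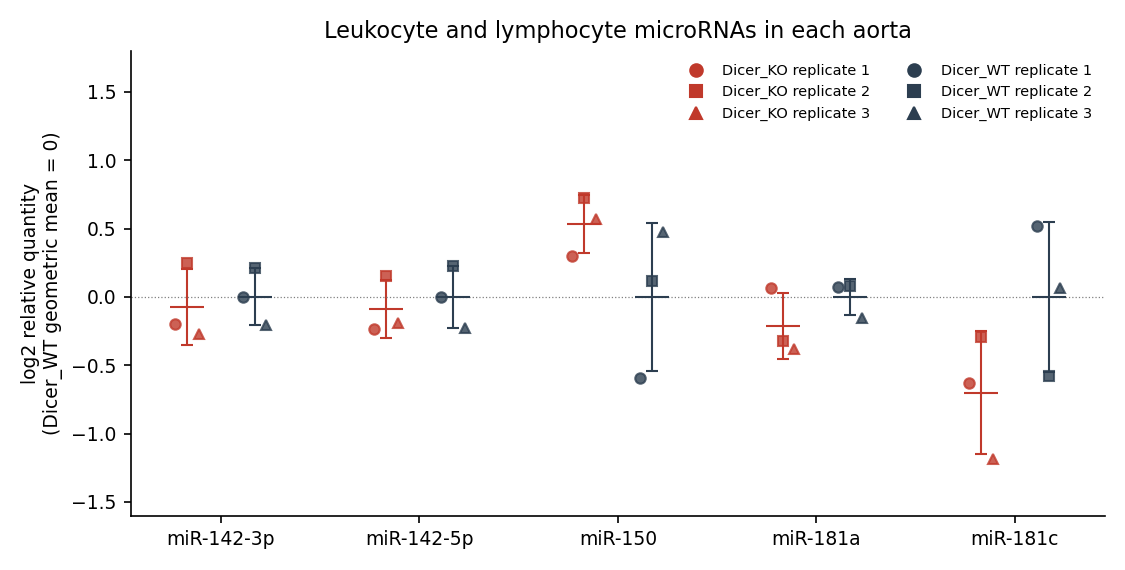
Log2 relative quantity of each microRNA in each aorta (vertical axis, 0 is the geometric mean of the Dicer_WT aortas), with Dicer_KO aortas in red left of Dicer_WT aortas in dark blue, one marker shape per replicate number, and the mean ± SD of 3 aortas as a bar. The groups overlap for all 5 microRNAs, and the Dicer_KO mean lies highest for miR-150 (0.53) and lowest for miR-181c (-0.70).

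On the authors' scale the 2 strands of the miR-142 hairpin differed between the genotypes by less than the spread between aortas, and their sign depended on the reference RNAs. For miR-142-3p, the relative quantity was 0.870, 1.19 and 0.829 in Dicer_KO replicates 1 to 3, against 0.999, 1.16 and 0.866 in Dicer_WT replicates 1 to 3. In both groups replicate 2 was the highest, and the Dicer_KO range enclosed the Dicer_WT range. For miR-142-5p the values were 0.852, 1.11 and 0.878 in Dicer_KO aortas, against 1.00, 1.17 and 0.856 in Dicer_WT aortas. Replicate 2, a different mouse in each group, was again the highest in both. The log2 fold change was -0.07 ± 0.22 for miR-142-3p (SE, limma adjusted p = 0.802) with a 95% interval from -0.63 to 0.48. For miR-142-5p it was -0.09 ± 0.21 (limma adjusted p = 0.755), with an interval from -0.60 to 0.43. Leaving out 1 aorta moved these values over a range from -0.24 to 0.030 for miR-142-3p and from -0.21 to 0.024 for miR-142-5p. Without normalization the strands were at -0.30 and -0.31, and with mean centring at 0.47 and 0.45. The intervals allow changes of either sign, and a p above the threshold does not show that the level was equal.

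Within an aorta, the strands kept a nearly fixed distance. miR-142-5p appeared 6.45, 6.51 and 6.33 cycles after miR-142-3p in the Dicer_KO aortas, and 6.41, 6.40 and 6.43 cycles after it in the Dicer_WT aortas. The SD of this distance over all 6 aortas was 0.058 cycles. The ratio of miR-142-3p to miR-142-5p had a log2 difference of 0.014 ± 0.052 between Dicer_KO and Dicer_WT aortas (SE, exact permutation p = 0.8, two-sided, n = 3 each). The distance itself also reflects how well each assay amplifies and so does not give the ratio of the strands in the tissue. Of the 376 other assays tested, miR-142-5p had the pattern over the 6 aortas most like that of miR-142-3p, with a root mean square difference of 0.053 on the log2 scale after each assay was centred on its own mean. The next were miR-17 at 0.12 and miR-19a at 0.13, and for miR-142-5p they were miR-17 at 0.11 and miR-19a at 0.12. All assays of an aorta share its RNA and its reference wells, so such likeness is a description of these 6 vessels.

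miR-150 was the only member with a positive log2 fold change on the authors' scale. Its relative quantity was 1.23, 1.65 and 1.49 in Dicer_KO replicates 1 to 3, against 0.664, 1.08 and 1.39 in Dicer_WT replicates 1 to 3. The Dicer_KO aortas lay close together, while the Dicer_WT aortas were spread more widely, and Dicer_WT replicate 3 stood above Dicer_KO replicate 1. The Ct was 18.9 ± 0.0722 in Dicer_KO and 19.2 ± 0.368 in Dicer_WT aortas (SD, n = 3 each). The log2 fold change was 0.53 ± 0.32 (SE, limma adjusted p = 0.274) with a 95% interval from -0.24 to 1.31, and without Dicer_WT replicate 1 it was 0.24. It ranked 337 of 377 from the lowest. The assay for the other strand of the hairpin, miR-150*, was at Ct 40, without product, in all 6 aortas, so the strands of miR-150 could not be compared.

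The red cell microRNAs of the same vessels are given here because miR-150 is carried by blood cells. miR-451, an erythroid microRNA that matures without Dicer, had relative quantities of 2.50, 3.12 and 2.15 in Dicer_KO aortas, against 1.91, 1.14 and 0.461 in Dicer_WT aortas. The Dicer_KO values all lay above the Dicer_WT values, at a log2 fold change of 1.36 ± 0.53 that did not pass the threshold (SE, limma adjusted p = 0.176). miR-486, the other member of the erythroid list, had relative quantities of 1.60, 3.16 and 2.03 in Dicer_KO aortas, against 1.70, 1.08 and 0.544 in Dicer_WT aortas. In the Dicer_KO aortas replicate 2 was highest for miR-150, miR-451 and miR-486 alike, and miR-486 had the same order as miR-150. In the Dicer_WT aortas the order was opposite, as miR-150 was highest in replicate 3, where miR-451 and miR-486 were lowest. The part of blood left in the vessels in the value of miR-150 was not tested. By the same measure of likeness, the assays most like miR-150 were miR-878-3p at 0.22, the endothelial miR-126-5p at 0.23 and miR-764-5p at 0.24, all detected in all 6 aortas.

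On the authors' scale the miR-181 members lay lower on average in Dicer_KO aortas, with overlapping groups. miR-181a turned above 0 on 4 of the 7 other scales given below. For miR-181a the relative quantity was 1.04, 0.799 and 0.767 in Dicer_KO aortas, against 1.05, 1.06 and 0.899 in Dicer_WT aortas. Dicer_KO replicate 1 lay among the Dicer_WT values, and the other two Dicer_KO aortas below all of them. The log2 fold change was -0.21 ± 0.20 (SE, limma adjusted p = 0.437), with a 95% interval from -0.71 to 0.28. Leaving out Dicer_KO replicate 1 gave -0.35, and leaving out Dicer_KO replicate 3 gave -0.13. The opposite strand of one of its hairpins, read as miR-181a-1* on the other card, has the sequence (seed in capitals) given next.
miR-181a-1*: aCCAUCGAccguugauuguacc
It had relative quantities of 1.39, 0.697 and 0.629 in Dicer_KO aortas, against 1.19, 0.999 and 0.843 in Dicer_WT aortas. As for miR-181a, Dicer_KO replicates 2 and 3 were the lowest of the 6. Its log2 fold change was -0.24 ± 0.35 (limma adjusted p = 0.614), and the ratio of miR-181a to miR-181a-1* had a log2 difference of 0.024 ± 0.24 between Dicer_KO and Dicer_WT aortas on the Ct scale of each card's references (SE, exact permutation p = 1, n = 3 each).

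miR-181c varied more. Its relative quantity was 0.648, 0.817 and 0.440 in Dicer_KO aortas, against 1.43, 0.668 and 1.05 in Dicer_WT aortas. The groups overlapped through Dicer_WT replicate 2, which lay below Dicer_KO replicate 2. The log2 fold change was -0.70 ± 0.37 (SE, limma adjusted p = 0.237) with a 95% interval from -1.61 to 0.21, the lowest of the 5 members, at rank 104 of 377 from the lowest. It was -0.46 without Dicer_KO replicate 3, -0.44 without Dicer_WT replicate 1 and -0.99 without Dicer_WT replicate 2. The pooled SD within groups was 0.50 on the log2 scale for miR-181c and 0.41 for miR-150, beside 0.25 for miR-142-3p, 0.22 for miR-142-5p, 0.20 for miR-181a and a median of 0.34 over all assays tested.

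miR-181a and miR-181c, which share a seed but come from separate genes, did not have the same pattern over the aortas. Their root mean square difference was 0.49, and by this measure miR-181a ranked 165 of 376 in likeness to miR-181c. The measure also counts the size of the variation, which was larger for miR-181c (pooled SD 0.50) than for miR-181a (0.20). The rank is thus not one of shape alone. The assays most like miR-181a were miR-497 at 0.065, miR-30c at 0.070 and miR-700 at 0.085. Those most like miR-181c were miR-467c at 0.24, miR-345-5p at 0.25 and miR-218 at 0.25. miR-181c appeared 5.20, 4.47 and 5.31 cycles after miR-181a in Dicer_KO aortas, against 4.07, 5.17 and 4.29 cycles in Dicer_WT aortas. The ratio of miR-181a to miR-181c was thus higher by 0.49 ± 0.43 on the log2 scale (SE, exact permutation p = 0.2, two-sided, n = 3 each), with overlapping groups. Without Dicer_KO replicate 2 this difference was 0.74, without Dicer_WT replicate 1 it was 0.27, and without Dicer_WT replicate 2 it was 0.82.

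**Figure D2:**
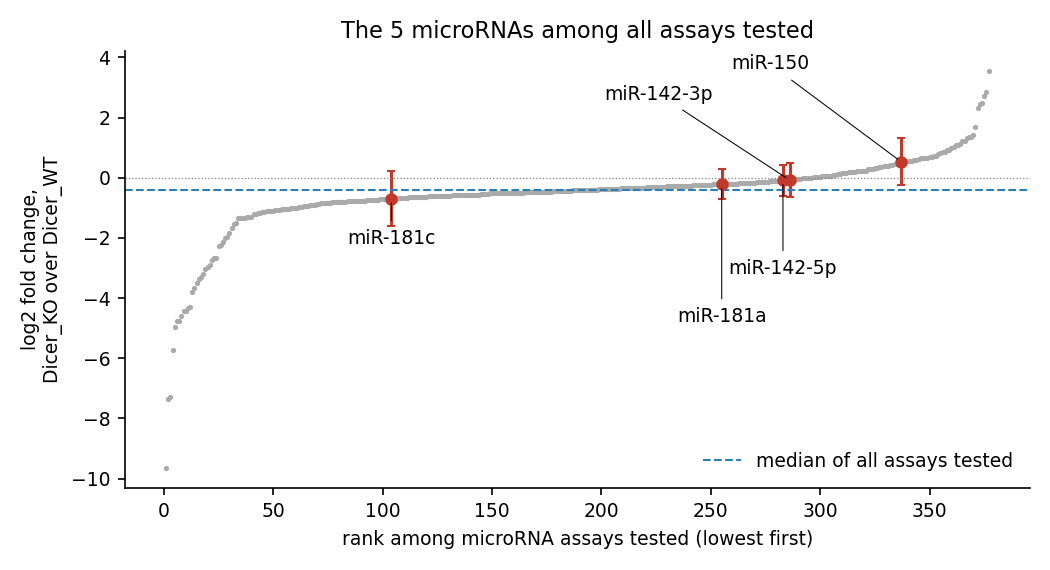
Log2 fold change of Dicer_KO over Dicer_WT aortas (vertical axis) for all 377 assays tested, ranked from the lowest (horizontal axis), with the 5 microRNAs in red and their 95% intervals, and the median of all assays (-0.42) as a dashed line. miR-181c lies below that median, the other 4 above it, and all 5 intervals include 0.

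Ratios between members of the same aorta use no reference RNA, since all 5 assays lay on one card. Of the 10 pairs of members, 1 had ratios that did not overlap between the groups, against 9739 of the 31125 pairs of assays tested on that card (31.3%). This was miR-150 over miR-181c, with a distance of 6.98, 7.07 and 7.81 cycles in Dicer_KO aortas, against 4.95, 6.75 and 6.46 cycles in Dicer_WT aortas. All 3 Dicer_KO ratios exceeded the highest Dicer_WT ratio, and the means differed by 1.23 ± 0.62 on the log2 scale (SE, exact permutation p = 0.1, two-sided, n = 3 each, the smallest p that 3 against 3 can give). Adjusted over the 10 pairs by Benjamini-Hochberg, this exact p was 0.429, and it does not pass. The difference was 0.68 without Dicer_WT replicate 1. The other 9 pairs had overlapping groups, with exact permutation p-values from 0.2 to 0.8.

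The members were set against miR-223, the abundant microRNA of granulocytes and macrophages, cells in which the lysozyme M gene is active. miR-223 itself had relative quantities of 0.279, 0.461 and 0.245 in Dicer_KO aortas, against 0.945, 1.39 and 0.761 in Dicer_WT aortas. miR-142-3p appeared before miR-223 in every Dicer_KO aorta, by 0.888, 0.611 and 1.01 cycles, and after it in every Dicer_WT aorta, at distances of -0.673, -1.02 and -0.565 cycles. Relative to miR-223, the pan-leukocyte strand was thus higher by 1.59 ± 0.18 on the log2 scale in Dicer_KO aortas (SE, exact permutation p = 0.1, two-sided, n = 3 each, the smallest possible). The difference for miR-142-5p was 1.57 ± 0.21, for miR-150 2.20 ± 0.49, for miR-181a 1.45 ± 0.39 and for miR-181c 0.96 ± 0.55. For all 5 ratios, all 3 Dicer_KO values exceeded the highest Dicer_WT value. Counting these 5, the same held for 172 of the 249 assays tested on that card besides miR-223 (69.1%), and all these ratios share miR-223, so the count says nothing particular about the members. For miR-181c the difference was 0.43 without Dicer_WT replicate 2.

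Against miR-451, 4 of the 5 ratios had all 3 Dicer_KO values under the lowest Dicer_WT value, as had 201 of the 249 assays tested on the card besides miR-451 (80.7%). The differences were -1.43 ± 0.53 for miR-142-3p, -1.45 ± 0.53 for miR-142-5p, -1.57 ± 0.57 for miR-181a and -2.06 ± 0.61 for miR-181c (SE, exact permutation p = 0.1 each, two-sided, n = 3 each). miR-150 was the exception among the members, at -0.82 ± 0.91 with overlapping groups (exact permutation p = 0.6). Its difference was -1.58 without Dicer_WT replicate 1 and -0.03 without Dicer_WT replicate 3. Adjusted over the 10 ratios to miR-223 and miR-451, the smallest exact permutation p was 0.111.

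**Figure D3:**
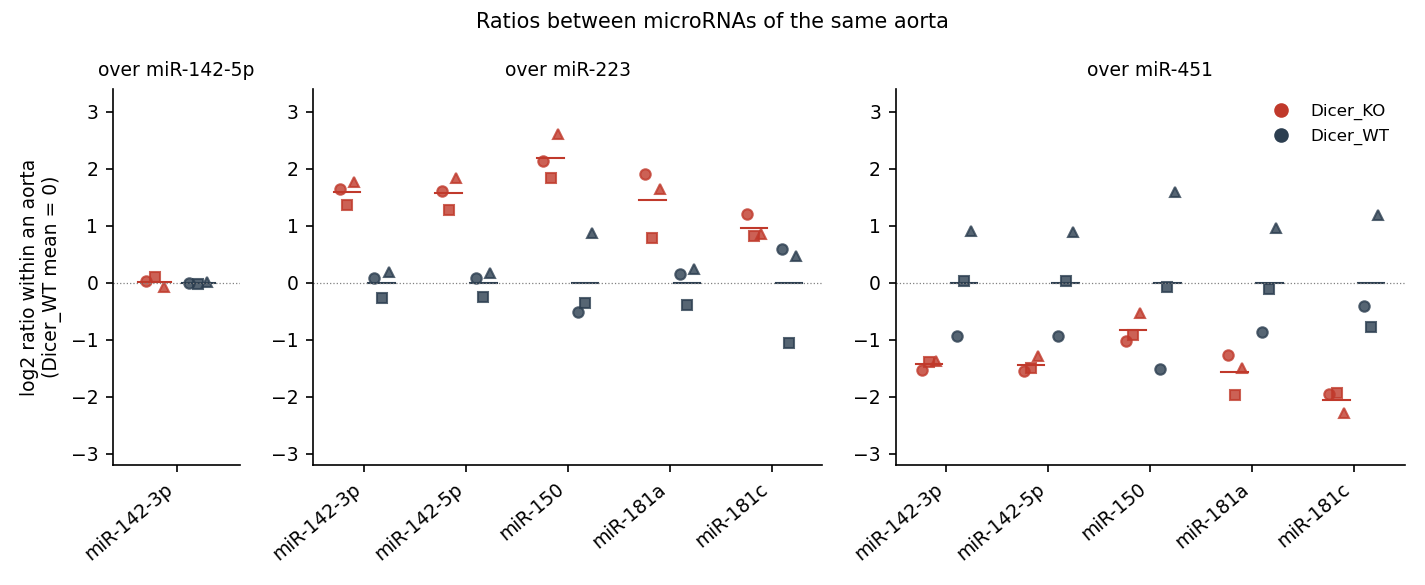
Log2 ratios between microRNAs of the same aorta (vertical axis, 0 is the Dicer_WT mean) for miR-142-3p over miR-142-5p, and for each of the 5 microRNAs over miR-223 and over miR-451, with Dicer_KO aortas in red left of Dicer_WT aortas in dark blue, one marker per aorta with a shape per replicate number, and lines at the means. The ratio of the miR-142 strands hardly varies, and all ratios to miR-223 are higher in Dicer_KO aortas. All ratios to miR-451 have lower means in Dicer_KO aortas, with overlapping groups only for miR-150.

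Among 14 further microRNAs with known roles in lymphocytes, 0 passed the threshold in either direction over all assays tested (limma). How far each of the 14 is confined to lymphocytes was not tested. On the authors' scale 12 of them were at negative values, beside 78.2% of all assays. The median log2 fold change of the 14 was -0.22, beside -0.42 over all assays. It turned above 0 with mean or median centring, with U87 and Y1 as the reference (0.29) and after quantile normalization. The lowest was miR-146a, a brake on inflammatory signalling that is also high in myeloid cells, at -0.93 ± 0.27 (SE, limma adjusted p = 0.106). The highest was miR-182, which is induced in activated helper T cells of mice and is also high in epithelium, at 1.70 ± 0.33 (limma adjusted p = 0.0626). The groups did not overlap for 4 of the 14, 3 lower (miR-146a, miR-155 and miR-10a) and 1 higher (miR-182), beside 32.6% lower and 2.39% higher over all assays. On the same array the 4 microRNAs listed as myeloid (miR-223, miR-511, miR-342-3p and miR-147) had a median of -1.83, below 0 on all 8 scales compared. Of these, 0 passed the threshold, and for all 4 the groups did not overlap. How far each of the 4 is confined to myeloid cells was not tested. miR-147 gave no product in Dicer_KO aortas and entered at Ct 35, so its value is a bound. The smooth muscle pair miR-143 and miR-145 had a median of -0.59 and the endothelial pair miR-126-3p and miR-126-5p one of 0.23, with 0 members of either past the threshold. The endothelial pair was not alike, with miR-126-3p at -0.005 ± 0.28 and miR-126-5p at 0.47 ± 0.27 (SE, limma). The groups did not overlap, lower in Dicer_KO aortas, for both smooth muscle microRNAs, and overlapped for both endothelial ones, all on the authors' scale. With mean centring, and relative to U87 and Y1, 1 of the 2 smooth muscle microRNAs, miR-145, turned above 0.

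The sign of 3 members followed the choice of reference. The control RNAs U87 and Y1, which the authors did not use as references, differed by -0.70 and -0.78 between Dicer_KO and Dicer_WT aortas on the log2 scale, from Ct without normalization on the members' card. Relative to these, the log2 fold change was 0.44 for miR-142-3p, 0.42 for miR-142-5p, 0.30 for miR-181a, 1.04 for miR-150 and -0.19 for miR-181c. The median of all assays was then 0.16. With no normalization the members were at -0.30, -0.31, -0.44, 0.31 and -0.93 in the same order, and the median of all assays at -0.64. On all 8 scales compared, miR-150 was above 0 and miR-181c below it. Both miR-142 strands and miR-181a were above the median of all assays on each of the 8. All scales but quantile normalization differ only by an amount shared by all assays of a card in an aorta. Distances from the median thus hardly changed between them, as 0.34 for miR-142-3p on the authors' scale, without normalization and with mean centring. The 8 scales do not count as separate results for such a distance. On none of these scales did a member pass the threshold. A sign held over all settings was not rare among the assays, as 49 of 377 (13%) were above 0 and 119 (31.6%) below 0 in each of 23 settings.

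**Figure D4:**
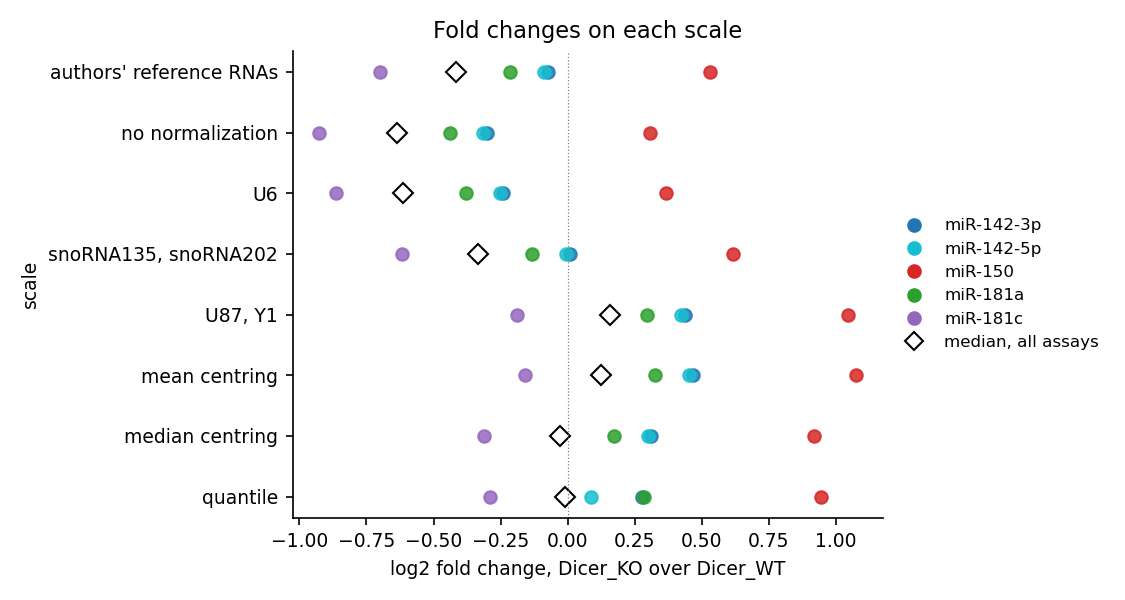
Log2 fold change of Dicer_KO over Dicer_WT aortas (horizontal axis) on 8 scales (vertical axis), from the authors' reference RNAs at the top to quantile normalization at the bottom, with a coloured point per microRNA and an open diamond for the median of all assays tested. The points shift nearly together with the diamond, except after quantile normalization, where the miR-142 strands part (0.28 for miR-142-3p and 0.088 for miR-142-5p). miR-150 stays to the right of 0 and miR-181c to the left of it, and the miR-142 strands and miR-181a change side.

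The authors' deposited table of fold changes, as linear ratios of Dicer_KO over Dicer_WT, gives 0.956 for miR-142-3p and 0.940 for miR-142-5p. The same deposited table by the authors gives 1.39 for miR-150, 0.868 for miR-181a and 0.606 for miR-181c. These values equal the ratios of the arithmetic means of the relative quantities. The ratios of geometric means, from the log2 fold changes above, were 1.45 for miR-150 and 0.615 for miR-181c, the 2 members that varied most between aortas.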

How the data were processed

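The labels' protocols give total RNA of whole aortas, TaqMan reverse transcription, preamplification and FAM probes. Not given in the sources used here were the Ct software, its threshold and the array version. No batch was recorded, and none was tested. The authors deposited Ct per assay and aorta (5 cells with a decimal comma were read with a point) and relative quantities, a linear ratio that the Ct values give back to within 8.53e-10 on the log2 scale for the 5 members. A deposited table of the authors' fold changes was used only for the values credited to it.

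Wells at Ct 35 or above were set to Ct 35. Of 517 microRNA assays, 377 gave Ct below 35 in 2 or more aortas of a genotype and were tested. Log2 relative quantities were fitted across these assays by limma 3.58.1 (R 4.3.3), with moderated two-sided p-values adjusted by Benjamini-Hochberg at a threshold of 0.05. Only the limma fit was run on simulated data, and the Ct 35 rule, the detection filter and the tests of ratios were not. Ratios were compared by exact permutation over aortas (SciPy 1.17.1). The members, lists and tests were chosen with earlier results of these data known. Named were the members, miR-223, miR-451, the extremes of the lists and the 3 assays most like each member. miR-155, miR-10a, miR-511, miR-342-3p, miR-147, miR-486, miR-143, miR-145 and miR-126-3p were named from these lists after their values were seen. The labels describe biological replicates, so each aorta was counted as 1 mouse.

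The list of further lymphocyte microRNAs was miR-155, miR-146a, miR-17, miR-18a, miR-19a, miR-19b, miR-20a, miR-92a, miR-29a, miR-29b, miR-29c, miR-31, miR-182 and miR-10a. Alternatives were other references and scales, Ct cutoffs of 32 and 38, other treatments of silent wells, other filters and variance models, the replicate number as a block, and leaving out each aorta. Centring on the median of assays detected in all 6 aortas was added after seeing the data.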

Additional observations from a re-analysis of the deposited data

How the results depend on the processing

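No member was called under any of the 22 alternatives run (limma, adjusted p under 0.05 over all assays). Signs turned for 3 members: with mean centring miR-142-3p was at 0.47, miR-142-5p at 0.45 and miR-181a at 0.33, with median centring at 0.31, 0.30 and 0.17, relative to U87 and Y1 at 0.44, 0.42 and 0.30, and after quantile normalization at 0.28, 0.088 and 0.29. Relative to snoRNA135 and snoRNA202, miR-142-3p was at 0.008. Leaving out 1 aorta gave a range from -0.24 to 0.030 for miR-142-3p and from -0.21 to 0.024 for miR-142-5p. miR-150 stayed above 0 and miR-181c below 0 in all 22. The Ct cutoffs, treatments of silent wells, filters, variance models and block left each member's log2 fold change as it was, by construction. Only the other references and scales, and leaving out an aorta, could turn a member's sign. The ratios between members, and those to miR-223 and miR-451, are the same with any reference of the card and kept their sign without each aorta, except miR-142-3p over miR-142-5p (from -0.026 to 0.062), miR-142-3p over miR-181a (from -0.075 to 0.34) and miR-142-5p over miR-181a (from -0.050 to 0.34). The count of all assays called, 7, was 11 with median centring, 12 relative to snoRNA135 and snoRNA202, 26 at a Ct cutoff of 32, 17 with undetected wells missing, 13 with Ct 40 as measured, 22 over assays detected in all aortas and 0 with a robust trended variance (limma), and from 5 without Dicer_WT replicate 1 to 64 without Dicer_KO replicate 1. The cause was not tested. With the replicate number as a block, 7 assays and 0 members were called, and the members' log2 fold changes were the same by construction (0.53 for miR-150, limma adjusted p = 0.168). The deviations of same-numbered aortas from their group means had correlations over assays of -0.084, -0.097 and 0.043 for replicates 1 to 3, so the numbers were not taken as pairs.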
